A study of Mus musculus with 12 samples.

Results

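The TRIM and RNF ubiquitin ligases were taken from a survey of N6-methyladenosine (m6A) in mouse hippocampus as every peak whose annotated gene symbol began with Trim or Rnf followed by a digit. The rule that picks the members reads gene names. It returned 230 of 33622 m6A peaks in wild-type (WT) mice, in 100 of 15781 genes, and 247 of 34935 peaks in Tyrobp-/- mice, in 102 of 16146 genes. A further table of regions compared between the genotypes held 46 member regions of 5640, in 40 genes, and added no gene, so that 110 genes were described: 51 Trim and 59 Rnf genes. Of these, 92 had a peak in both genotypes, 8 had one in the WT list only and 10 in the Tyrobp-/- list only, which is 8.0% and 9.80% of each list's member genes against 10.1% and 12.2% of all genes. RefSeq lists 151 protein-coding genes of these names, and 44 of them (18 Trim and 26 Rnf) had no row in the lists analysed here.

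The study asked how loss of Tyrobp, which encodes a transmembrane adaptor protein of microglia, alters m6A in the hippocampus. Methylated RNA immunoprecipitation sequencing (MeRIP-seq), in which an antibody against m6A enriches methylated RNA fragments, was run on WT and Tyrobp-/- male mice of 6 months on a C57BL/6 background. The knockout was made with a TALEN nuclease that removes bases from exon 2 of Tyrobp, and littermates served as controls. Each group had 3 samples, each pooling the hippocampal RNA of 3 mice, and each sample gave an immunoprecipitated (IP) and an input library. The deposited peak values combine the 3 samples of a genotype, so each peak has 1 value per genotype. A difference between genotypes has therefore no replicate check and no test here.

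RING domains bind zinc and bring a ubiquitin-loaded E2 enzyme to the protein to be marked, which is then often degraded by the proteasome. TRIM proteins join a RING to B-box and coiled-coil domains and are sorted by what follows at the C terminus, such as NHL repeats, a SPRY domain or a fibronectin repeat behind a COS box. RNF is a naming series for other RING proteins, among them RING-between-RING ligases, membrane-anchored ligases and ligases of histones. m6A is written by the METTL3 complex, mostly at GGAC-like motifs and often near stop codons and in 3′ UTRs, and it influences how long an mRNA lasts and how well it is translated.

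Member peaks that covered a transcription start can be shown with their letters. RefSeq start windows (the first 50 transcribed bases, GRCm38.p6) were searched on the transcript strand for GGACN, where N is any base. The sequences below are those in which the motif lay in a window wholly covered by a member peak, with the motif in capitals.
Trim45 (chr3:100922497-100922526, + strand): tgggagagcccgaGGACCcactacctcatc
Trim32 (chr4:65604986-65605005, + strand): gaaGGACGtgctagcgcatg
Trim2 (chr3:84270734-84270753, − strand): actcacagcctgaGGACTat
Trim47 (chr11:116110202-116110231, − strand): gcggcggagccatGGACGgcagcgggcctt
Trim10 (chr17:36869585-36869614, + strand): agcagcttcgggtGGACAgaaagttgcagt
Rnf39 (chr17:36943051-36943073, + strand): ggctgaGGACTagggtgcgtcgg
Rnf39 (chr17:36943060-36943089, + strand): ctagggtgcgtcgGGACCcctgctttccat
Of 16 member start windows wholly inside a peak of either list, 6 held the motif (37.5%), beside 21.2% of all 151 Trim and Rnf start windows and 18.5% of 32851 windows over all genes. By list the motif was in 5 of 12 windows inside a WT peak (41.7%) and in 2 of 9 inside a Tyrobp-/- peak (22.2%). The Trim45 window was covered in both genotypes, at an enrichment of 12.7 in WT and 69.6 in Tyrobp-/- mice. The Trim32 window was covered in the Tyrobp-/- list (2.98), and the Trim2 (7.81), Trim47 (11.7), Trim10 (8.79) and Rnf39 (12.7) windows in the WT list. A match describes the letters of the window and does not mark a methylated base.

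The 12 libraries held between 61189368 and 73554506 valid reads each. Reads behind a single peak were not analysed here, so the precision of 1 enrichment value is unknown. GC made up 49.7% ± 0.541 of bases in WT IP libraries and 48.9% ± 0.442 in those of Tyrobp-/- mice (SD, n = 3 each), against 47.8% in both input groups, and the part of this gap in the differences below was not tested. Tyrobp itself had 0 peaks in either list, so the lists do not check the knockout. Among markers, 9 of 10 neuronal, 4 of 4 astrocyte, 4 of 4 oligodendrocyte and 4 of 6 microglial genes had peaks in both genotypes. Of 5 hypothalamic genes 2 had a peak in WT and 0 in Tyrobp-/- mice. Pmch and Hcrt, which are among these 5, had no peak in either list. The study reports both among its most upregulated genes in Tyrobp-/- mice, so a called peak does not measure how much of a tissue is present. An m6A enrichment is a ratio of IP to input over the same region, and differences in cell composition and in methylation per cell cannot be told apart in this tissue.

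Member peaks lay mainly in 3′ UTRs. In WT mice 118 of 230 (51.3%, 95% Clopper-Pearson interval 44.6 to 57.9) were annotated there, 50 in 5′ UTRs, 19 in other parts of first exons and 43 in later exons. In Tyrobp-/- mice the 3′ UTR held 136 of 247 (55.1%, 48.6 to 61.4), the 5′ UTR 52, first exons 18 and later exons 41. Over all peaks the 3′ UTR share was 47.2% in WT and 49.3% in Tyrobp-/- mice, which lies inside both intervals of the members. The intervals cover counting error only, and peaks of 1 gene are not independent. Rnf genes had 56.1% of WT peaks in 3′ UTRs and Trim genes 45.8%, while in Tyrobp-/- mice both stood near 55% (55.2% and 54.8%).

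**Figure D1:**
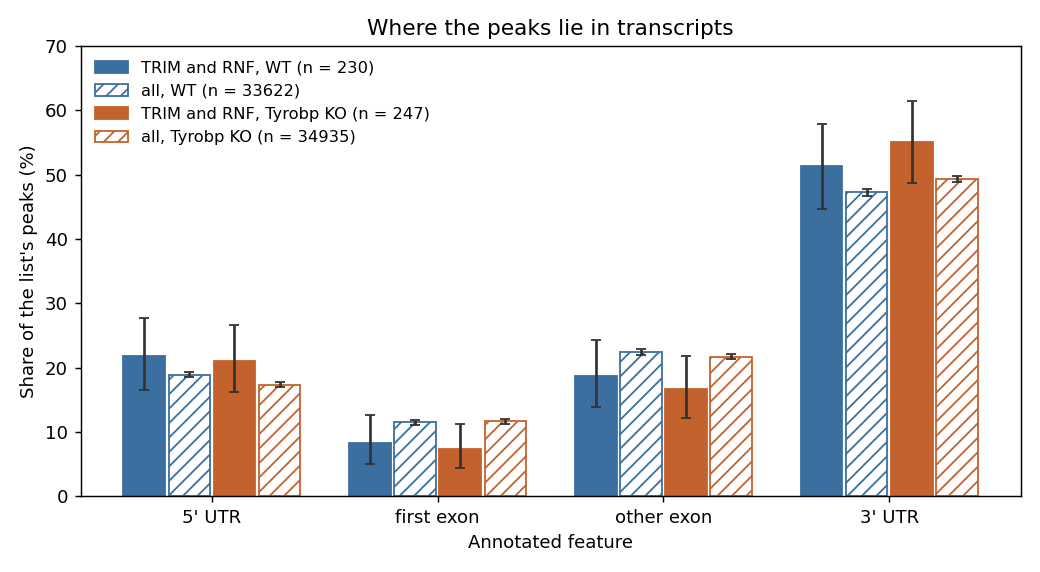
Share of peaks (%) in each annotated feature for TRIM and RNF peaks (filled bars) and for all peaks (hatched bars) of the WT list (blue) and the Tyrobp-/- list (orange, labelled Tyrobp KO). Error bars are 95% Clopper-Pearson intervals, and 3′ UTRs hold 51.3% of WT and 55.1% of Tyrobp-/- member peaks.

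Enrichment of the members was close to that of the whole lists. The median member peak stood at 5.945-fold over input in WT (interquartile range 3.26 to 8.79) and 5.72-fold in Tyrobp-/- mice (3.05 to 9.53), against 5.54 and 5.72 over all peaks. The 5′ UTR peaks of members were the highest class, with medians of 7.94 in WT and 7.51 in Tyrobp-/- mice. Later exons were the lowest, with 4.23 and 4.38. The order over all peaks was another, with first exons highest (6.84 and 6.67) and 3′ UTRs lowest (5.195 and 5.28). There 5′ UTRs stood at 5.86 and 6.055 and later exons at 5.295 and 5.60. Peaks per gene numbered 2.30 (WT) and 2.42 (Tyrobp-/-) for members and 2.13 and 2.16 over all genes. The enrichment column holds values that recur in many peaks: 6.84 stood in 1281 WT peaks, 10 of them members, and 6.67 in 1361 Tyrobp-/- peaks, 8 of them members. Of the peaks at these values, 74.7% in WT and 76.7% in Tyrobp-/- mice had a peak-calling FDR that was not below 0.05. Among members 20 WT and 23 Tyrobp-/- peaks (8.70% and 9.31%) had such an FDR, against 10.3% and 11.0% of all peaks. The next most frequent values were 7.81 and 8.79 in WT and 7.62 and 8.58 in Tyrobp-/- mice. At each of these, between 61.5% and 71.8% of peaks had an FDR not below 0.05.

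The strongest member peak in WT was in the 5′ UTR of Trim41, a ligase known for degrading protein kinase C, at 46.7-fold over 1459 exonic bases (chr11:48815895-48817353). It stood at 52.5 in Tyrobp-/- mice. Trim27, the RET finger protein, followed with 33.2 in WT and 15.2 in Tyrobp-/- mice, also in the 5′ UTR (chr13:21181134-21181582). Among Rnf genes the highest was a 5′ UTR peak of Rnf150, a transmembrane ligase with a protease-associated domain, at 32.2 in WT and 38.1 in Tyrobp-/- mice (chr8:82863776-82864226). The 3′ UTR peak of Rnf25 stood at 25.1 and 29.2. Rnf111 (Arkadia), which degrades repressors of TGF-β signalling, carried its strongest peak at the 5′ UTR, with 20.5 in WT and 26.7 in Tyrobp-/- mice. The 3′ UTR of Rnf144b, a RING-between-RING ligase, stood at 17.2 and 24.2. The other 4 of the 5 Trim and 5 Rnf genes with the strongest WT peak were Trim67, Trim65, Trim30e-ps1 and Rnf19b. These 4 were lower in Tyrobp-/- mice and are described below. The Tyrobp-/- value was therefore higher in 5 of these 10 genes and lower in 5. The peak-calling FDR of these WT peaks was given as 0 for Trim41, Rnf25 and Rnf144b. It was 3.16e-18 for Rnf150, 2.00e-18 for Trim67, 2.14e-09 for Rnf19b and 7.41e-09 for Trim65. For Trim27, Rnf111 and Trim30e-ps1 it was 1e-08, 3.47e-06 and 2.04e-05. Peaks of similar enrichment thus differed widely in FDR.

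Trim2 carried the most WT peaks of the members, 10, and 8 in Tyrobp-/- mice, of which 10 and 7 were concordant with the gene in strand and exon. It encodes an NHL-repeat ligase of neurofilament light chain. Its peaks ran from a first-exon peak of 16.6 in WT (12.4 in Tyrobp-/- mice) to a 3′ UTR peak of 1.67 (2.62), with a further 3′ UTR peak of 8.31 (10.8). Rnf213, a giant ATPase ligase, had 7 WT and 10 Tyrobp-/- peaks, but 3 and 6 of them lay on the strand opposite to the gene, among them the highest of each list (8.30 and 9.53). The highest of its 4 remaining peaks in each list was 6.75 in WT and 5.53 in Tyrobp-/- mice. Rnf150 had 5 and 7 peaks, of which 4 and 5 were on its own strand, Rnf144b 5 and 5, of which 2 and 2 were, and Trim67 6 and 8, all on its own strand.

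Strand and annotation limit what a gene name means here. Judged from the order of rows, which runs strand by strand, and from the exon named in the annotation, 204 of 230 WT and 218 of 247 Tyrobp-/- member peaks were concordant with the gene given (88.7% and 88.3%, against 88.1% and 88.2% of all peaks). All 2 WT and 3 Tyrobp-/- peaks of Trim28, the co-repressor of KRAB zinc finger proteins, were on the opposite strand, outside its RefSeq span, and 4 of these 5 overlapped Zbtb45. Peaks of Rnf2 at 3.58 and 2.93 in WT lay in Trmt1l. Of the member peaks with a RefSeq span, 8 of 228 in WT and 14 of 246 in Tyrobp-/- mice lay outside it (3.51% and 5.69%), against 5.06% and 5.28% of all peaks.

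To compare genotypes, peaks of the lists that were each other's largest exonic overlap and carried 1 gene name were paired. This gave 171 member pairs among 23891 pairs. The median log2 ratio of Tyrobp-/- over WT enrichment was 0.08 for members (interquartile range −0.23 to 0.37) and 0.05 for all pairs (−0.28 to 0.39). At least 2-fold higher enrichment in Tyrobp-/- mice was found in 16 member pairs (9.36%), against 6.84% of all pairs, and at least 2-fold lower enrichment in 10 (5.85%), against 5.92%. Past 2-fold in either direction were 26 member pairs (15.2%), against 12.8% of all pairs. The families differed in this count: 17 of 69 Trim pairs (24.6%) and 9 of 102 Rnf pairs (8.82%) were past 2-fold. With peak-calling FDR below 0.05 in both lists, 15 of 62 Trim pairs (24.2%) and 4 of 95 Rnf pairs (4.21%) were past it, against 11.7% of all such pairs. At a threshold of 1.5-fold, 47 member pairs (27.5%) were past it, against 29.0% of all pairs. These are counts over peaks with 1 value per genotype, and the difference between the families was not tested. An enrichment is relative to the input of the same genotype, so these ratios do not measure the total amount of m6A. By a kit and by immunostaining, the study found less m6A in Tyrobp-/- hippocampus. It also reported lower levels of the methyltransferase components METTL3, METTL14 and WTAP.

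**Figure D2:**
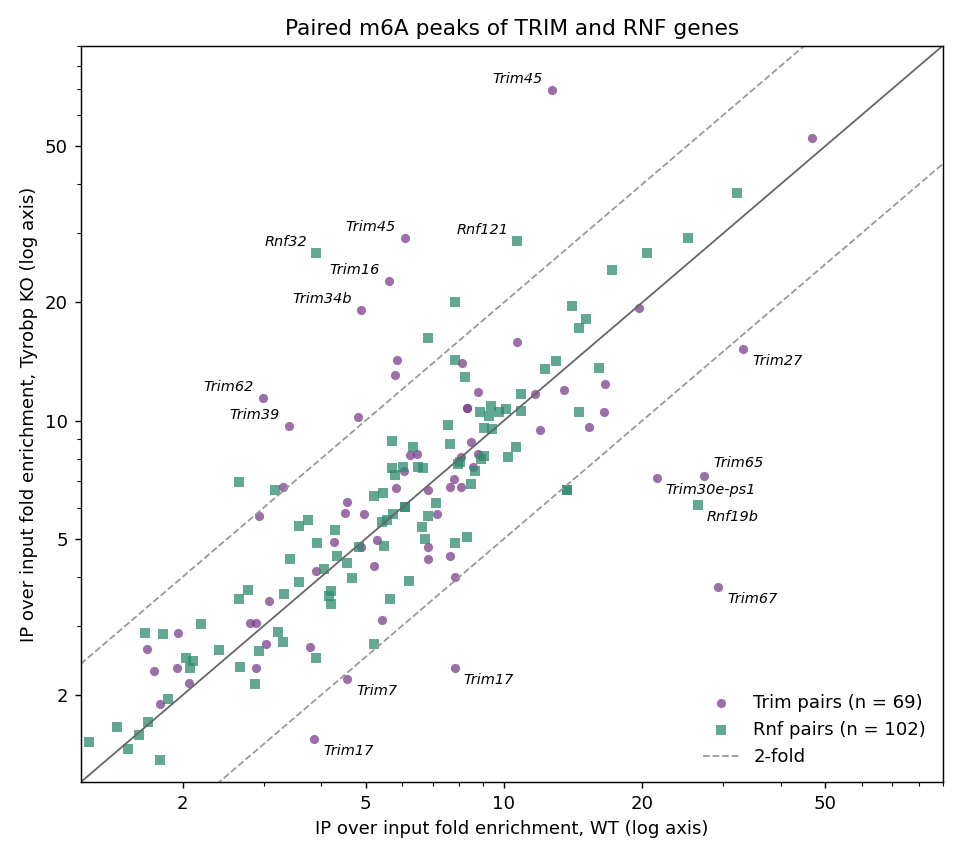
IP over input fold enrichment of each of the 171 paired TRIM (purple circles) and RNF (green squares) peaks in WT (x axis) and Tyrobp-/- mice (y axis, labelled Tyrobp KO), both on log axes. The solid line marks equal enrichment and the dashed lines a 2-fold difference. The labelled points are the 8 pairs highest and the 8 lowest in Tyrobp-/- over WT, with Trim45 at 12.7 against 69.6 and Trim67 at 29.3 against 3.78 farthest from the line among TRIM peaks.

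Trim45, whose protein carries a filamin-type domain, was the one gene with 2 pairs among the 8 highest ratios. Its 5′ UTR peak (chr3:100922292-100927330 in WT, 1861 exonic bases), which covers the start sequence printed above, stood at 12.7 in WT and 69.6 in Tyrobp-/- mice, 5.48-fold higher. Its 3′ UTR peak (chr3:100929917-100931981) stood at 6.10 and 29.1, 4.77-fold higher. A further peak downstream stood at 8.30 and 10.8. The boundaries were close in both lists, with 1771 shared exonic bases in the first pair and 571 in the second, and the peak-calling FDR of the first was 5.01e-86 in WT and 2.51e-87 in Tyrobp-/- mice.

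Other Trim peaks were also higher in Tyrobp-/- mice. The 3′ UTR peak of Trim16, a ligase tied to autophagy of damaged lysosomes, stood at 5.62 in WT and 22.7 in Tyrobp-/- mice (chr11:62840636-62841233, 4.04-fold higher). Trim62 had a 5′ UTR peak at 2.99 and 11.4, whereas its 3′ UTR peak stood at 11.7 in both genotypes. The 5′ UTR peaks shared 120 exonic bases, and the Tyrobp-/- one lay outside the RefSeq span of Trim62. Trim39, a regulator of apoptosis, had 1 3′ UTR peak at 3.40 and 9.68 and a second, stronger in WT, at 16.5 and 10.5. Within Trim39, and between the sites annotated to Trim62, the ratio therefore differed from peak to peak. Trim34b stood at 4.88 and 19.1, but its paired peaks shared 31 exonic bases, its WT peak had an FDR of 0.0851, and it belongs to a cluster of near-identical genes between which reads could be split. Trim56, an antiviral ligase, had a 3′ UTR peak at 5.86 and 14.3.

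Among Rnf genes, Rnf121, a membrane ligase of the early secretory pathway, had a 5′ UTR peak at 10.7 in WT and 28.6 in Tyrobp-/- mice (2.67-fold higher), while its 3′ UTR peak stood at 5.49 and 4.79. The largest ratio of all members was at Rnf32, 3.91 and 26.7, where the annotated exon was not concordant with the gene, so this pair cannot be credited to Rnf32. The pair of Rnf146, a ligase that recognises poly-ADP-ribose and degrades axin, had a log2 ratio of 1.36 but was on the opposite strand, with a WT FDR of 0.139. Of the 16 pairs that were at least 2-fold higher, 13 were concordant and 12 had an FDR below 0.05 in both lists.

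The lowest ratio belonged to Trim67, a brain-enriched ligase that binds the netrin receptor DCC. Its 3′ UTR peak stood at 29.3 over 929 exonic bases in WT (chr8:124828236-124829922) and at 3.78 over 211 of these bases in Tyrobp-/- mice (chr8:124829383-124829593), 7.75-fold lower. The remaining 4 pairs of the gene had log2 ratios between −0.62 and 0.44. The Tyrobp-/- list held a peak of 12.4 further along the 3′ UTR (chr8:124831360-124831509) that overlapped no WT peak, and the WT list one of 6.51 that overlapped no Tyrobp-/- peak. Along this 3′ UTR, WT had the higher value at the paired site and Tyrobp-/- mice had a called peak where WT had none.

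Rnf19b, a RING-between-RING ligase of natural killer cells, had a peak of 26.4 in WT and 6.10 in Tyrobp-/- mice (chr4:129085647-129085886, 4.33-fold lower), which was annotated to the 3′ UTR but lay past the end of the gene in RefSeq. Its other 3′ UTR peak stood at 7.81 and 4.89. Trim65, which ubiquitinates the RNA sensor MDA5, had a 5′ UTR peak with identical boundaries in both lists (chr11:116130979-116131128) at 27.3 and 7.24, 3.77-fold lower, and a later exon peak at 3.91 and 4.13. Trim17, known from neuronal apoptosis, had a 3′ UTR pair at 7.81 and 2.35, whose peaks of 210 and 300 exonic bases shared 61. Another pair of Trim17 at 3.87 and 1.55 was not concordant, and its 5′ UTR pair stood at 5.83 and 6.73. The pseudogene Trim30e-ps1 stood at 21.5 over 361 exonic bases in WT and at 7.15 over 61 of these in Tyrobp-/- mice. It lies in the same cluster as Trim34b, where reads could be split between genes. Trim27 stood at 33.2 and 15.2 in its 5′ UTR and at 4.51 and 5.81 in its 3′ UTR, and Trim7 at 4.56 and 2.20 in one 3′ UTR peak and at 10.7 and 15.9 in another. Of the 10 pairs that were at least 2-fold lower, 7 were concordant and 7 had an FDR below 0.05 in both lists. When the overlap had to cover 50% of both peaks, 4 of 140 pairs were at least 2-fold lower (2.86%, against 4.33% of all pairs). The Trim67 pair, which shared 211 of 929 WT bases, was not among them.

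Trim47 and Trim65 are neighbours on chromosome 11. The Trim47 3′ UTR pair at 5.79 and 13.1 (chr11:116125868-116126615) lay inside the RefSeq span of Trim65, on the same strand. A second pair within Trim47 (chr11:116105841-116106138) stood at 4.81 and 10.2. The 5′ UTR peak of Trim47 formed no pair, and stood at 11.7 in WT and 5.24 in Tyrobp-/- mice. Its WT peak (chr11:116110085-116126570) also reached into the Tyrobp-/- peak of 13.1, so no direction was read from it. The 5′ UTR pair of Trim65 above was lower in Tyrobp-/- mice.

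When pairs were grouped by the architecture or role of the protein, 13 of the 26 past 2-fold lay in the SPRY and remaining TRIM genes. These had 7 of 31 pairs at least 2-fold higher and 6 lower, together 41.9%. The 13 include pairs of Trim34b, Trim62, Trim17, Trim30e-ps1 and Trim47 that small overlap, FDR, strand or position limits, as given above. The share was not recomputed without them. Over all pairs 6.84% were at least 2-fold higher and 5.92% lower, together 12.8%. TRIM genes of other single architectures (Trim8, Trim44, Trim45, Trim56) had 3 of 10 higher, from Trim45 and Trim56, and 0 lower. RING-between-RING ligases had 0 of 11 higher and 3 lower: 1 of Rnf19b and 2 of Rnf144b, the latter at 13.7 in WT and 6.67 in Tyrobp-/- mice, neither concordant. None of the 8 NHL pairs, the 5 pairs of PHD and bromodomain TRIM genes, the 19 pairs of chromatin and DNA damage ligases or the 11 pairs of protease-associated ligases was past 2-fold. The share over all pairs was 12.8%, and whether these groups differ from it was not tested. In the protease-associated group 10 of 11 pairs were above 0 on the log2 scale, against 53.6% of all pairs. The median was 0.24, against 0.05 over all pairs. These pairs came from 3 genes (Rnf13 with 3, Rnf43 with 3 and Rnf150 with 5), and pairs of 1 gene are not independent. Among groups with more than 1 pair this group had the highest share above 0, and the count is given for it alone. Whether its direction differs from that of all pairs was not tested.

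**Figure D3:**
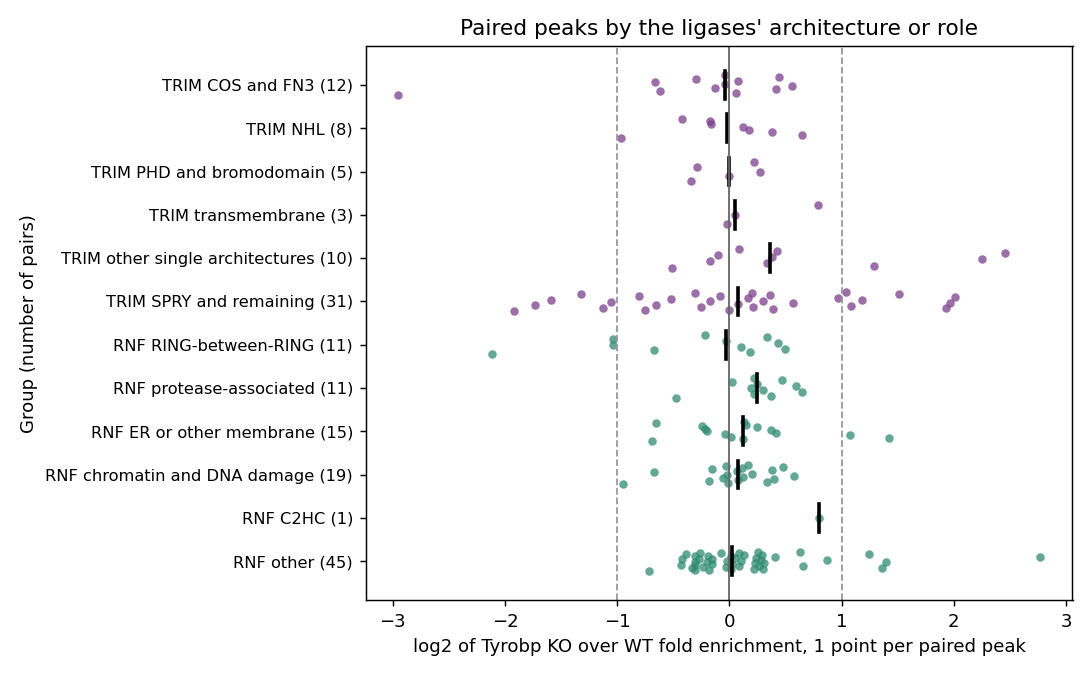
Log2 ratio of Tyrobp-/- over WT enrichment (x axis) for each paired peak, by group (y axis, number of pairs in brackets), with TRIM groups in purple and RNF groups in green. Black bars are group medians, dashed lines mark 2-fold, and vertical spread within a group carries no value. Of the 26 points past 2-fold, 13 lie in the SPRY and remaining TRIM genes, 7 of 31 pairs higher and 6 lower. Over all pairs of the series 6.84% were at least 2-fold higher and 5.92% lower.

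Of the 56 pairs of ligases listed for a nervous system or defining role, 1 was at least 2-fold higher (Rnf146, on the opposite strand) and 1 lower (Trim67) in Tyrobp-/- mice, together 3.57% against 12.8% of all pairs. The widest of the others was a 5′ UTR pair of Trim2 at 7.81 and 4.00. Trim9, a brain ligase of the netrin pathway, had 3′ UTR pairs at 2.89 and 3.05, 1.95 and 2.88, and 2.06 and 2.15 in WT and Tyrobp-/- mice. Trim3, which degrades the postsynaptic scaffold GKAP, stood at 2.81 and 3.06 in its 3′ UTR and 3.08 and 3.47 in a later exon. Trim46, which bundles microtubules at the axon initial segment, stood at 7.78 and 7.10 and at 1.73 and 2.31 in its 3′ UTR. All of these were within 2-fold. Rnf10, a messenger between synapse and nucleus, had 3′ UTR pairs at 5.56 and 5.60 (on the opposite strand) and at 3.93 and 4.87. Rnf112 (neurolastin) stood at 9.04 and 9.57 and at 7.10 and 6.17, and Rnf157 at 13.0 and 14.2, all in 3′ UTRs. Rnf182, a brain-enriched ligase, stood at 8.66 and 7.46 in its 5′ UTR. Rnf220, which acts in neural patterning, stood at 10.1 and 10.7 in its 5′ UTR and 4.84 and 4.77 in a later exon. None of these pairs was past 2-fold either.

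**Figure D4:**
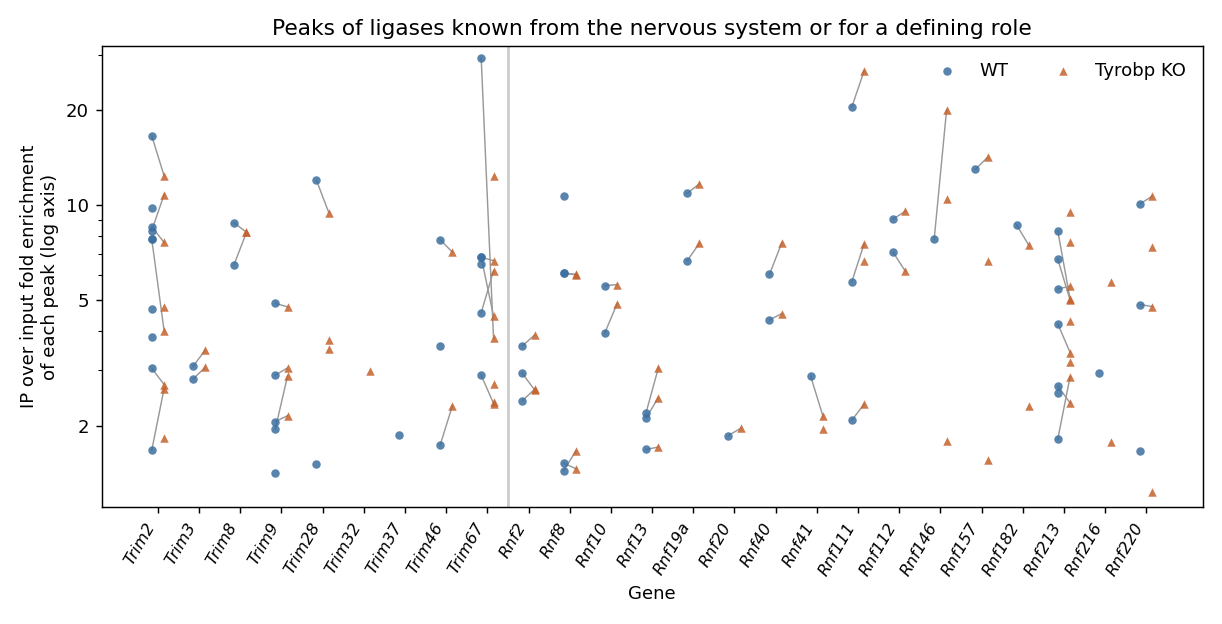
Fold enrichment over input (log y axis) of every peak of 25 ligases known from the nervous system or for a defining role, in WT (blue circles) and Tyrobp-/- mice (orange triangles, labelled Tyrobp KO), with grey lines joining paired peaks. The steepest lines are those of Trim67 (29.3 to 3.78) and Rnf146 (a log2 ratio of 1.36), and Trim32 and Trim37 have a peak in 1 list only.

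The 19 pairs of histone and DNA damage ligases had log2 ratios between −0.95 and 0.58, with a median of 0.08. The ends of this range were a first-exon pair of Rnf169 at 5.21 and 2.70, with a Tyrobp-/- FDR of 0.0891, and a 3′ UTR pair of the same gene at 3.75 and 5.59. Rnf168, which extends ubiquitin marks at DNA breaks, stood at 6.23 and 3.90 in its 5′ UTR and at 9.05 and 8.13 in its 3′ UTR. Rnf20 and Rnf40, which together ubiquitinate histone H2B, stood at 1.86 and 1.96 in a later exon of Rnf20 and at 6.03 and 7.61 and 4.33 and 4.53 in the 3′ UTR of Rnf40. Rnf8, which acts at double-strand breaks, had 4 pairs with log2 ratios between −0.06 and 0.21, and a WT peak of 10.7 that overlapped no Tyrobp-/- peak and lay outside its RefSeq span. The pair of Rnf2, the catalytic ligase of Polycomb complex 1, inside its own gene stood at 2.40 and 2.61. All 3 Rnf111 pairs were higher in Tyrobp-/- mice, by log2 ratios of 0.17 to 0.40. The 3 pairs of Rnf13, an endosomal ligase, stood at 1.68 and 1.71, 2.19 and 3.04, and 2.11 and 2.45. Rnf41, which targets the receptor ErbB3, stood at 2.87 and 2.14. Trim8, a regulator of cytokine signalling, stood at 8.79 and 8.21 and at 6.48 and 8.20. Rnf216, the ligase of the synaptic protein Arc, formed no pair under its own name: its Tyrobp-/- peak of 5.72 overlapped a WT peak of 17.1 annotated to Gm43380. Rnf14 and Rnf31 had no row in the lists analysed here.

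Some paralogs differed in how many peaks they carried. Trim2 had 10 WT and 7 Tyrobp-/- concordant peaks and Trim3 2 and 2, and the strongest WT peak was 16.6 in Trim2 and 3.08 in Trim3. Trim9 had 4 WT and 3 Tyrobp-/- concordant peaks, up to 2.89 in WT, beside 1 in each list on the opposite strand (4.88 and 4.76), and Trim67 had 6 and 8 up to 29.3. Rnf144a and Rnf144b each had 2 concordant peaks in each list, up to 4.16 and 17.2 in WT. Both Rnf19a and Rnf19b had 2 peaks in each list, and Rnf19a stood at 10.9 and 11.7 in its 3′ UTR and 6.66 and 7.58 in its 5′ UTR, without the difference seen at Rnf19b. The test of such a difference between paralogs is not possible with 1 value per genotype. Rnf13 had 3 and 3 peaks and Rnf185 2 and 2, while their partners Rnf167 and Rnf5, and the pair Rnf115 and Rnf126, had no row in the lists.

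Of the member peaks, 47 of 230 in WT (20.4%, 15.4 to 26.2) and 60 of 247 in Tyrobp-/- mice (24.3%, 19.1 to 30.1) overlapped no peak of the other list, against 20.9% and 23.0% of all peaks. In WT this share was 29.9% for Trim peaks (21.4 to 39.5) and 12.2% for Rnf peaks (6.99 to 19.3), and in Tyrobp-/- mice 28.8% (20.4 to 38.6) and 21.0% (14.6 to 28.6). Peaks without a partner were weaker, with a median of 4.23 against 6.06 for shared member peaks in WT and 3.595 against 6.43 in Tyrobp-/- mice. Requiring 50% overlap of both peaks raised the shares to 38.7% and 41.7%, and requiring an FDR below 1e-05 in both lists lowered them to 11.9% and 12.8%.

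The 8 genes with a peak in the WT list only were Rnf4, Trim10, Trim12c, Trim30b, Trim30c, Trim31, Trim37 and Trim75, and 6 of their 9 peaks had an FDR not below 0.05. The strongest was in the 5′ UTR of Rnf4, a ligase of SUMO-modified proteins, at 11.7 (chr5:34336972-34337091, FDR 0.00891). Trim10, Trim30b and Trim30c stood at 8.79 each, Trim75 at 7.81 and Trim31 at 6.84, all with an FDR above 0.05 and all at values that recur in the WT list. The peak with the smallest FDR, 6.17e-10, was the 5′ UTR peak of Trim37, a ligase of centrosomes and peroxisomes, at an enrichment of 1.87. A missing peak says only that none was called, and the RNA level of these genes was not analysed here. Trim12c, Trim30b and Trim30c also lie in the cluster of Trim34b, as does Trim30a, named below, so reads could be split between them.

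In the Tyrobp-/- list only, peaks were given to Rnf138rt1, Rnf166, Rnf170, Rnf208, Rnf222, Trim15, Trim30a, Trim32, Trim58 and Trim72, and 3 of these 12 peaks had an FDR not below 0.05. Trim58, an erythroid ligase that degrades dynein, had a 3′ UTR peak of 21.9 (chr11:58651368-58651723, FDR 1.41e-05) and one of 8.58 over its preceding exons (FDR 0.102). Trim72, a membrane repair protein of muscle, had a 3′ UTR peak of 13.3 (chr7:128010140-128010497, FDR 0.00316). Trim32, an NHL-repeat ligase of neural progenitors, had a 5′ UTR peak of 2.98 (FDR 5.75e-05), whose start sequence is printed above. Rnf170, a ligase of the inositol trisphosphate receptor, had peaks of 9.53, not concordant, and 1.40. Rnf222 stood at 6.67 (FDR 0.290) and Trim30a, an inhibitor of Toll-like receptor signalling, at 3.62. The Rnf208 peak of 6.87 overlapped a WT peak of 9.74 that was annotated to Cysrt1, so that the region was enriched in both genotypes. In the same way a 5′ UTR peak given to Rnf114 in Tyrobp-/- mice (37.2) overlapped a WT peak given to Spata2 (5.86). Such pairs with different gene names numbered 8 among the members and are not in the counts above.

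The rest of the ubiquitin pathway gave a frame for these counts. Of the 30 pairs of E2 enzymes, 2 were at least 2-fold higher and 2 lower in Tyrobp-/- mice, with Ube2b (a log2 ratio of 2.98) and Ube2q2 (−2.03) farthest apart, both in 5′ UTRs. RING ligases with other names had 2 of 57 higher, among them the 5′ UTR of Mylip (9.77 and 45.7), and 2 lower. HECT ligases had 2 of 47 higher and 3 lower, Huwe1 and Nedd4 among the latter. Deubiquitinases of the Usp series had 2 of 80 higher, Usp20 (2.23 and 16.2) and Usp34, and 6 lower. E1 enzymes had 1 of 6 higher, Uba3, and 0 lower. The share past 2-fold was 13.3% for E2 enzymes, 7.02% for the other RING ligases and 10.6% for HECT ligases, and 8 of 80 pairs of deubiquitinases were past it, against 24.6% for Trim and 8.82% for Rnf pairs and 12.8% over all pairs.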

How the data were processed

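MeRIP-seq was run on WT and Tyrobp-/- hippocampus, 3 IP and 3 input libraries per genotype. The authors trimmed reads with fastp, aligned them with HISAT2 to a mouse genome given as version v96 (read here as Ensembl release 96, GRCm38), called peaks with exomePeak and annotated them with ChIPseeker; versions of these tools are not given in the sources used here. Each peak list deposited by the authors pools the 3 replicates of a genotype and gives per peak a p-value, a log10 FDR and the fold enrichment (ratio) of IP over input. Raw and valid read counts per library and the percent of GC and Q30 bases are in a quality table that the authors deposited. Columns of the authors' own genotype comparison (fold change, p-value and FDR) were not used; of that table only gene names and positions were read.

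All gene spans of members that matched RefSeq GRCm38.p6 by symbol (99 of 99 in WT, 101 of 101 in Tyrobp-/- mice) overlapped it, and 109 of 110 member symbols were found there. The strand of a peak is not a column and was read from the row order, in which each chromosome runs strand by strand. Peaks were shared when exonic blocks on 1 strand overlapped by at least 1 base, and paired when each was the other's largest overlap and both carried 1 gene name. A pair was called past 2-fold at a log2 ratio of at least 1 in size. Python 3.11.15, pandas 2.3.3 and scipy 1.17.1 were used, and the pairing was tested on simulated data. No test was run across peaks, since each has 1 pooled value per genotype.

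Members and lists were chosen with earlier results of these data known. Genes are named if they were among the 8 highest or 8 lowest pairs, the 5 Trim and 5 Rnf genes with the strongest WT peak, the 5 genes with most peaks, the 6 strongest genes of 1 list only, or in fixed lists of nervous system ligases and paralogs, with Trim58 added because the study names it; some listed genes are not reported here. The members with a peak in 1 list only beyond these, the pathway genes, Trim47, Trim56, Rnf39, Rnf114, Rnf168 and Rnf169 were named after their values were seen.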

Additional observations from a re-analysis of the deposited data

How the results depend on the processing

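Of 48 values recomputed under alternatives, 35 stayed within the counting interval or within 1.5 times the reported count and 13 moved. Requiring a peak-calling FDR below 1e-05 raised the 3′ UTR share of member peaks to 62.9% in WT and 69.2% in Tyrobp-/- mice. The share of peaks in 1 list only fell to 11.9% and 12.8% (11.5% and 12.4% of all peaks). Among 127 member pairs left, 9 were at least 2-fold higher (7.09%, against 4.46% of all pairs) and 3 lower (2.36%, against 3.37%). Counting 1 peak per gene, the strongest, raised the median enrichment to 8.79 in WT and 8.565 in Tyrobp-/- mice. An overlap of 50% of both peaks raised the share in 1 list only to 38.7% and 41.7% (39.9% and 42.1% of all peaks). It left 11 pairs higher and 4 lower among 140 (7.86% and 2.86%, against 5.25% and 4.33% of all pairs). A 1.5-fold threshold gave 25 pairs higher and 22 lower (14.6% and 12.9%, against 15.9% and 13.1% of all pairs). Centring on the median of all pairs gave 15 and 11 (8.77% and 6.43%, against 6.24% and 6.40% of all pairs). Alternatives chosen after seeing the data gave 13 and 7 with concordant peaks (8.44% and 4.55%, against 6.59% and 5.71% of all pairs). With an FDR below 0.05 in both lists they gave 12 and 7 (7.64% and 4.46%, against 6.43% and 5.24%). No paired analysis was possible because the peak values pool the replicates of a genotype and carry no replicate number, and for the same reason no replicate could be left out.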
